A study of Mus musculus with 2 samples.

Results

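The microRNAs of striated muscle were followed in the skin and oral mucosa of unwounded mice: mmu-miR-1a-3p, mmu-miR-206-3p, mmu-miR-133a-3p, mmu-miR-133a-5p, mmu-miR-133b-3p and mmu-miR-499-5p, written below without the species prefix. These 6 were chosen by name among the 1892 mature mouse microRNAs that the arrays carried, and all 6 had a probe. The study arose from the question of which microRNAs distinguish the oral mucosa, where wounds close rapidly, from skin. Each tissue was read on 1 single-colour (Cy5) microarray that received 2 µg of total RNA, a pool of 3 animals, so that there was no replicate across pools and no test between the tissues could be run. The methods call the tissue samples matched, but after pooling no animal can be followed from one array to the other. The mice were female Balb/c of 8 to 10 weeks per the study's methods, with no transgene or treatment named for either array. The study's text calls the profiled samples epithelium, whereas the labels name only the tissues.

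MicroRNAs are short RNAs that pair with messenger RNAs, mainly through a stretch near their 5′ end called the seed, and lower the output of those messages. The miR-1/206 and miR-133 families are known as myomiRs: the muscle regulators MyoD, myogenin, SRF and MEF2 drive their precursors, miR-1 and miR-206 favour muscle differentiation, and miR-133 favours the growth of muscle precursors. MiR-1 and miR-133a are shared by heart and skeletal muscle, miR-206 and miR-133b are largely restricted to skeletal muscle, and miR-499, like its relatives of the miR-208 family, is encoded within a myosin heavy chain gene and is linked to slow muscle fibres and heart. Mouse skin holds a thin sheet of striated muscle, the panniculus carnosus, under its fat layer, and striated muscle also underlies parts of the oral lining.

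Mature sequences were matched in RefSeq (GRCm38.p6) for 3 of the 6 members, 1 from each family, and are shown with that of miR-208a-3p, a relative of miR-499-5p, so that the seeds can be compared. Capitals mark the seed, bases 2 to 8, and sequences run 5′ to 3′.
miR-206-3p: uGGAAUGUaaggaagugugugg
miR-133b-3p: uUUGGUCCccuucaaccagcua
miR-499-5p: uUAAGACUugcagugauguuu
miR-208a-3p: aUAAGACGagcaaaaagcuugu
The seeds of miR-499-5p and miR-208a-3p have 6 of their 7 bases in common, and those of miR-208a-3p and miR-208b-3p have 7 of 7. MiR-206-3p lies at chr1:20679055-20679076 and miR-133b-3p at chr1:20682834-20682855, both on the plus strand, with 3686 bases between their precursor genes Mir206 and Mir133b. MiR-499-5p lies at chr2:155622893-155622913 on the plus strand, inside Myh7b, a myosin heavy chain gene. The precursor genes Mir208a and Mir208b lie on chromosome 14 inside Myh6 and Myh7, the myosin heavy chain genes of heart and of heart and slow muscle.

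In skin 5 of the 6 muscle microRNAs, and in oral mucosa 3, did not rise above the detection limit. Each probe had 2 repeat spots, whose brightness was read in scanner units without background subtraction. The 16 empty spots averaged 36.4 ± 7.84 (SD) for skin, against 51.9 ± 6.65 for oral mucosa, and a microRNA was called detected when its mean lay more than 3 SD above them, which placed the limits at 59.9 (skin) and 71.8 (oral mucosa). On this basis 1 of the 6 was detected in skin, where 446 of the 1892 microRNAs or 23.6% were, and 3 in oral mucosa, where 510 or 27.0% were. MiR-206-3p was detected on both arrays, miR-133a-3p and miR-133b-3p on the mucosal array only, and miR-1a-3p, miR-133a-5p and miR-499-5p on neither. Of all 1892 microRNAs, 20.8% were detected on both arrays, 6.13% on the mucosal array only and 70.3% on neither. Of the 12 spots of these probes, 3 exceeded the limit in skin, 2 of miR-206-3p and 1 of miR-1a-3p. In oral mucosa 6 did, 2 each of miR-206-3p, miR-133a-3p and miR-133b-3p. The share over all spots was not counted, so these numbers are no contrast between the tissues. In pooled tissue RNA, fewer cells of a type and less RNA per cell cannot be told apart.

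**Figure D1:**
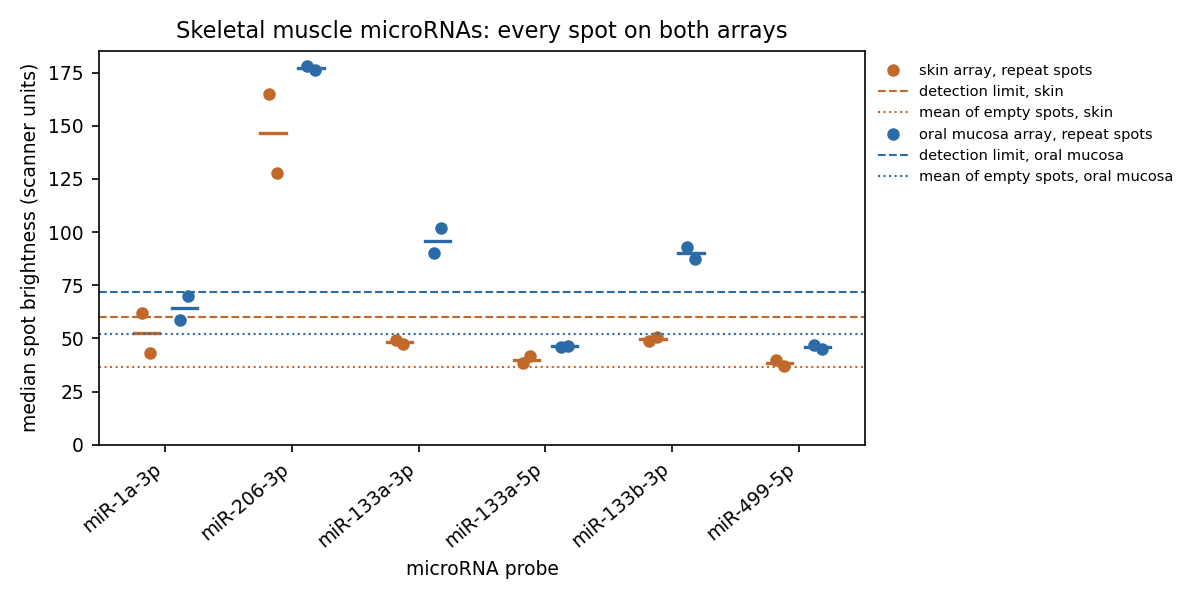
Median brightness of every repeat spot (scanner units, linear axis from 0) of the 6 muscle microRNAs on the skin and mucosal arrays, with bars at the mean of the 2 spots, dashed lines at each array's detection limit and dotted lines at the mean of its empty spots. MiR-206-3p stands above the limits on both arrays, and miR-133a-3p and miR-133b-3p on the mucosal array only.

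MiR-206-3p, the skeletal muscle member of the miR-1/206 family, was the only member detected in both tissues, and its levels there differed by less than its repeat spots did. Its skin spots read 165 and 128 and its oral mucosa spots 178 and 176, that is 146 ± 26.5 (SD of the 2 repeat spots) and 177 ± 1.34. Both oral mucosa spots were the brighter in scanner units, but that array also had brighter empty spots. The arrays were made comparable by Variance Stabilizing Normalization (VSN), in which every array receives its own offset and scale and bright signals behave as on a log2 scale. On that scale oral mucosa minus skin was -0.19, with a repeat-spot SD of 0.36. Without normalization between the arrays it was 0.28, and with the second repeat spot alone 0.01, so no direction can be given. The other arm of the same precursor, miR-206-5p, was detected on neither array, with 41.5 ± 0.37 in skin and 46.9 ± 1.23 in oral mucosa.

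With 2 arrays a pattern consists of a pair of values, and the microRNA nearest to miR-206-3p over that pair, among the 393 others detected on both arrays, was miR-3077-5p. It read 144 ± 5.28 in skin and 178 ± 22.9 in oral mucosa, at a Euclidean distance of 0.04 in VSN log2 values. A likeness over 2 arrays is a description of their brightness only.

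The precursors of the miR-133 family are transcribed together with those of miR-1 and miR-206. Of this family miR-133a-3p and miR-133b-3p were detected in oral mucosa, while miR-133a-5p, miR-133b-5p and miR-133c were not. MiR-133a-3p read 49.2 and 47.5 on its skin spots and 90.2 and 102 on its oral mucosa spots, or 48.4 ± 1.22 and 96.0 ± 8.24. MiR-133b-3p read 49.0 and 50.7 in skin and 93.1 and 87.4 in oral mucosa, or 49.9 ± 1.22 and 90.2 ± 4.01. On the skin array the means of miR-133a-3p and miR-133b-3p lay 1.53 SD and 1.72 SD above the empty spots, short of the limit. On the mucosal array they lay 6.63 SD and 5.77 SD above them.

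As the skin signals were not well above background, the lowest detected signal of the skin array was set in their place, here called the floor. Against it the VSN log2 difference of miR-133a-3p was 0.71 (SD 0.24 from its oral mucosa spots) and that of miR-133b-3p was 0.53 (SD 0.13), that is, on the VSN scale, at least 1.64-fold and at least 1.45-fold higher on the mucosal array. Neither reached the 2-fold size, a log2 difference of 1, at which a microRNA was taken to differ. These lower bounds hold only for the offsets that VSN fitted and takes away before the signals are compared. The skin offset, 37.9, lay above the mean of that array's empty spots, 36.4. The oral mucosa offset, 46.3, lay below the mean of its own, 51.9. In scanner units, with background included and no scaling, the means were 1.98-fold and 1.81-fold apart. With their own skin signals in place of the floor, the VSN differences were 1.75 and 1.39, both past the size rule. When the detection limit was set at 2 SD above the empty spots, a setting chosen after seeing the data, the floor was lower and the differences from it were 1.32 and 1.15. With quantile normalization they were 0.22 and 0.14. The size of the difference thus moved with both the detection filter and the scaling. For a microRNA detected on the mucosal array only, a difference under 0 against the floor was set to 0. The sign of these values was therefore set by detection.

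MiR-133a-3p and miR-133b-3p are nearly identical in sequence, so that each probe may bind the other microRNA, and their signals are not counted as separate evidence. Their spots also lie close together on the array, in columns 2 and 17. Among probes detected on neither array, the median spot read 35.9 in column 1 and 37.5 in column 2 of the skin array, against 40 in its other columns, and 43.7 and 49.2 against 49.1 on the mucosal array, so that column 1, at the edge of the chip, was dimmer on both. Without those columns on both arrays, the differences from the floor were 0.87 for miR-133a-3p and 0.44 for miR-133b-3p. The passenger arm miR-133a-5p, the strand of the precursor that is usually degraded, stayed at background, with spots of 38.3 and 41.7 in skin and 46.1 and 46.4 in oral mucosa. Its means were 0.46 SD above the empty spots in skin and -0.84 SD from them in oral mucosa.

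**Figure D2:**
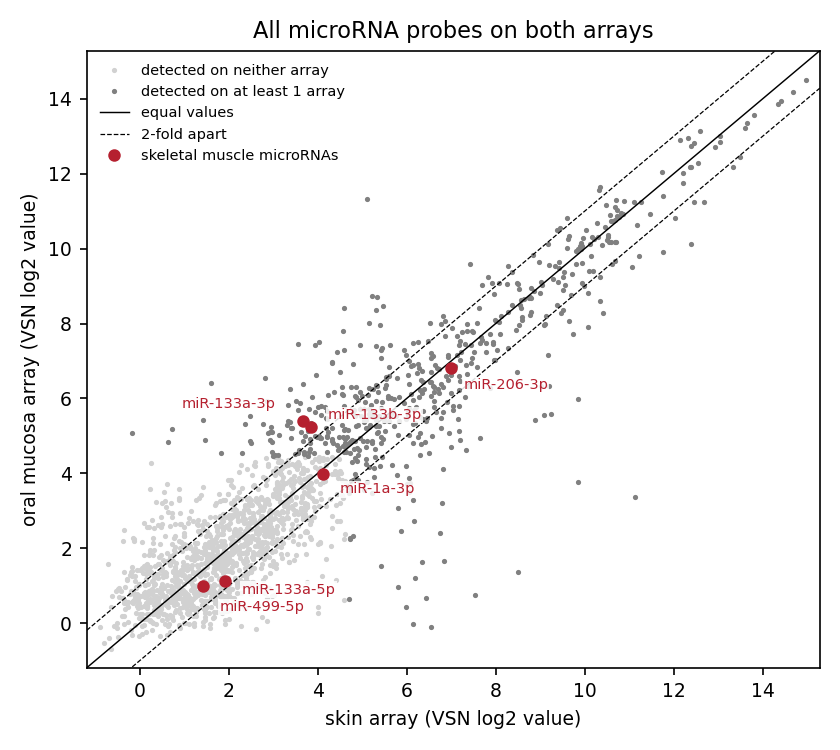
VSN log2 values of all 1892 microRNA probes on the skin (horizontal) and oral mucosa (vertical) arrays, each at its own signal, with the 6 muscle microRNAs in red, a solid line at equal values and dashed lines 2-fold apart. MiR-206-3p lies near the line of equality and miR-133a-3p and miR-133b-3p lie above the upper dashed line at their own skin signals, which were below the detection limit.

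MiR-1a-3p, in striated muscle among the most abundant microRNAs, was not detected in either tissue by the mean of its spots, and the spots disagreed. In skin they read 62.0 and 43.1, with 1 of the 2 above the limit, and in oral mucosa 58.9 and 69.8, with 0 above it. The means, 52.5 ± 13.3 and 64.3 ± 7.74, lay 2.06 SD and 1.87 SD above the empty spots, and the tissues overlapped. The brighter skin spot was uneven: brightness within it had an SD of 20.98, against 2.58 within its repeat, a median of 3.19 within skin spots of undetected probes and 7.34 at the 99th percentile of those. The spots next in its column, those of miR-1b-3p and miR-1b-5p, were uneven too, with SDs of 55.9 and 32.4. The part of this unevenness in the value of miR-1a-3p was not tested.

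MiR-499-5p, which in muscle is co-expressed with its host myosin gene, was at background throughout. Its spots read 40.1 and 37.2 in skin and 46.7 and 44.9 in oral mucosa, or 38.6 ± 2.04 and 45.8 ± 1.31. These means were 0.29 SD above the empty spots and -0.91 SD from them.

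The deposited values that had been processed, by a method not given in the sources used here, are whole numbers with a median of 4 over the microRNAs of each array. They were 125 in skin and 103 in oral mucosa for miR-206-3p, 11 and 36 for miR-133a-3p, and 13 and 33 for miR-133b-3p. For miR-1a-3p they were 19 and 14, for miR-133a-5p 1 and 0, and miR-499-5p was listed at 0 on both arrays.

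Between the arrays 28.5% of the 562 microRNAs with a detected signal in skin or oral mucosa differed by 2-fold or more, 13.7% with higher signal in oral mucosa and 14.8% with higher signal in skin. The share was 14.2% with quantile normalization, 15.1% with arrays scaled to their medians, 15.1% with 75th-percentile scaling and 15.5% with the processed values. Of the 3 detected muscle microRNAs, 0 did under any of these. Their median difference was 0.53, beside 0.00 over all detected microRNAs, and was 0.14 with quantile normalization and -0.17 and -0.19 without a detection filter and with detection required on both arrays. With only 3 values, of which 2 were taken against the floor from probes that may read each other's target, this median describes those probes only.

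**Figure D3:**
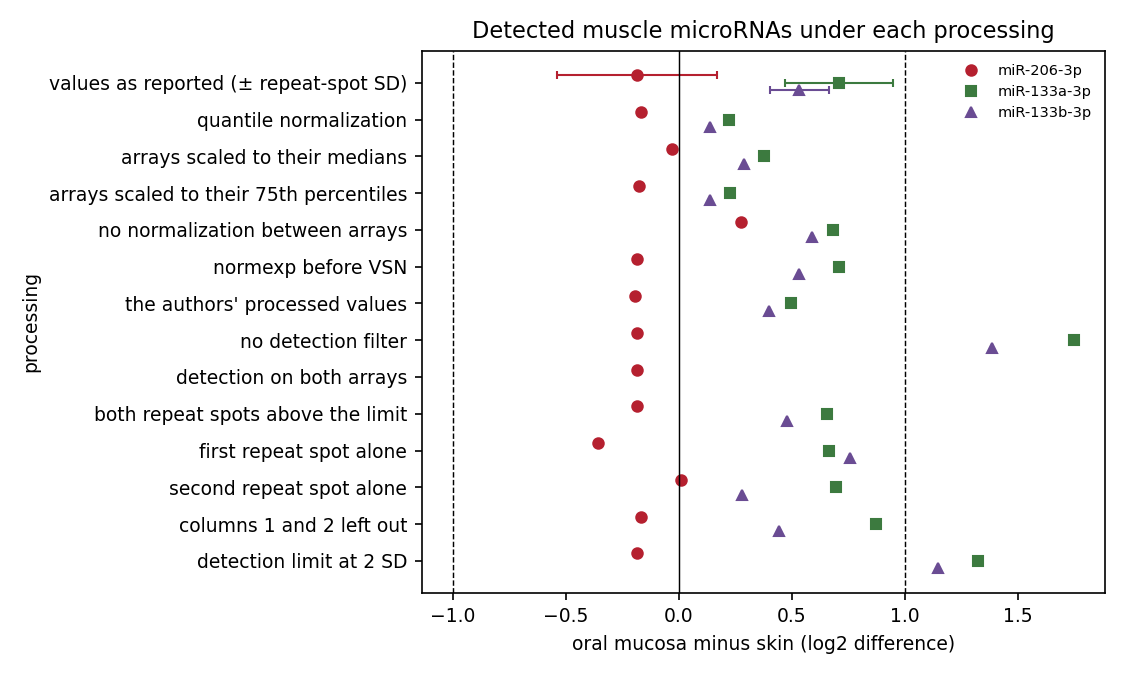
Log2 difference of oral mucosa minus skin for the 3 detected muscle microRNAs under each processing, with the SD of the repeat spots as bars on the reported values, a solid line at 0 and dashed lines at 2-fold. MiR-206-3p stays between -0.36 and 0.28, and miR-133a-3p and miR-133b-3p pass 2-fold only without a detection filter or with the limit at 2 SD.

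Other arms and relatives of these microRNAs were read beside them. Of 12 such probes, 9 were detected on neither array, where 70.3% of all 1892 probes were, among them miR-499-3p, miR-133b-5p, miR-133c and both arms of miR-208b. MiR-208a-5p, from the precursor inside the cardiac myosin gene Myh6, was detected on both, with spots of 72.0 and 61.3 in skin and 87.5 and 92.3 in oral mucosa. Its VSN log2 difference was 0.14 (SD 0.40), smaller than the spread between spots. This difference ran from -0.03 to 0.43 across the scalings, the background corrections and the processed values.

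The remaining signals of this group were seen on the skin array alone, and each rested on 1 spot. MiR-208a-3p read 129 and 42.4 in skin against 45.6 and 45.8 in oral mucosa, so that its second skin spot was at background. Against the oral mucosa floor its VSN log2 difference was -1.35, past the size rule toward skin, but in scanner units its means were 1.88-fold apart, the SD of its skin spots was 2.93 on the VSN scale, more than the difference itself, and other scalings brought it to as little as -0.25. MiR-1b-3p read 86.0 and 34.2 in skin, the first of these being the uneven spot described above, and 42.8 and 46.2 in oral mucosa. Its mean of 60.1 was just above the limit of 59.9, and its difference from the floor was -0.25 with an SD of 4.19. Such disagreement was uncommon: repeat spots differed by 2-fold or more for 26 of the 446 microRNAs detected in skin and for 4 of the 510 in oral mucosa. The expression of miR-208a-3p and miR-1b-3p in skin therefore cannot be read from these spots.

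**Figure D4:**
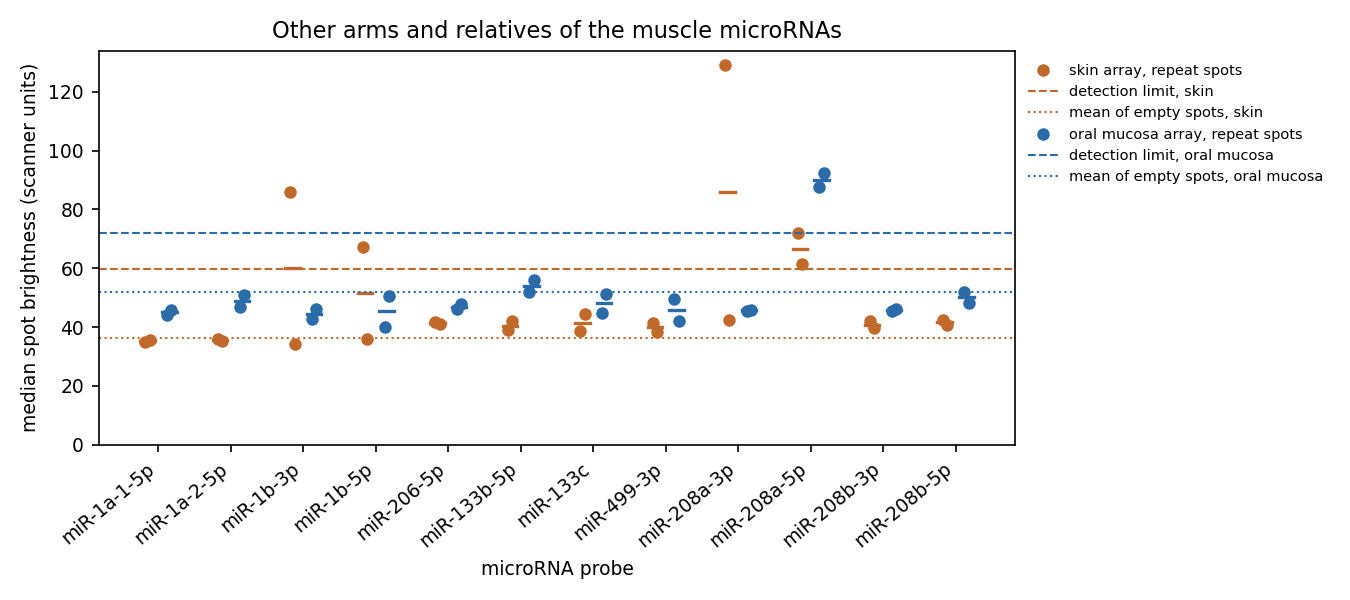
Median brightness of every repeat spot (scanner units, linear axis from 0) of 12 other arms and relatives of the muscle microRNAs, with bars at the mean of the 2 spots, dashed lines at the detection limits and dotted lines at the mean of the empty spots of each array. Apart from 1 skin spot of miR-1b-5p, the 9 probes detected on neither array stay under the limits, and the skin spots of miR-208a-3p and miR-1b-3p disagree.

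A few microRNAs that are abundant in muscle but also widely expressed were read for comparison. MiR-22-3p, found in many tissues including heart and muscle, read 937 ± 35.9 in skin against 1752 ± 111 in oral mucosa, with a VSN log2 difference of 0.47 (SD 0.11). MiR-378a-3p, encoded within the metabolic coactivator gene Ppargc1b, read 117 ± 13.0 and 206 ± 10.7, a difference of 0.55 (SD 0.26). Both differences exceeded the spread between spots and stayed under the size rule. Across the scalings, the background corrections and the processed values they ranged from 0.45 to 0.90 and from 0.32 to 0.81. On the same list miR-378a-5p and miR-486-3p were detected on neither array. MiR-486-5p, also listed, had no probe under that name, so its level was not read.

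Markers of other cells in these tissues were set beside the muscle microRNAs, as signal above the empty spots summed over each list. These sums are in scanner units, not scaled between the arrays, and include undetected probes. A probe below the empty spots entered as 0. The 6 muscle members summed to 158 in skin and 220 in oral mucosa, with miR-206-3p the brightest. These sums were 1.40-fold apart, beside a VSN scale of the mucosal array 1.37 times that of the skin array. All 7 epithelial microRNAs, of the miR-200 family, miR-203 and miR-205, were detected on both arrays, so that the defining microRNAs of epithelium were present in each tissue. They summed to 48970.5 in skin and 48416 in oral mucosa, with miR-205-5p the brightest, a median difference of -0.48, and 1 past the size rule in each direction. These were miR-429-3p toward oral mucosa and miR-200c-3p toward skin. The skin spots of miR-429-3p disagreed, at 371 and 833, and its difference was 1.12 (SD 0.89). That of miR-200c-3p was -0.95 with quantile normalization and -0.75 without normalization, short of the size rule. MiR-205-5p and miR-203-3p ranged up to 0, and miR-141-3p, -0.17 as reported, ranged up to 0.29. Among 5 smooth muscle probes, of the miR-143 and miR-145 cluster, 4 were detected in oral mucosa and 2 in skin. They summed to 99.6 in skin and 390.1 in oral mucosa, with miR-145a-5p the brightest and 2 past the size rule, both toward oral mucosa. Of these, miR-145a-5p read 80.2 ± 4.80 in skin against 246 ± 19.0 in oral mucosa, with a VSN log2 difference of 1.78 (SD 0.21), and miR-143-3p read 57.0 ± 0.44 and 169.6 ± 4.03, or 2.98-fold apart in scanner units. The VSN log2 difference of miR-143-3p from the skin floor was 2.02. It was 1.05 with 75th-percentile scaling and 1.04 with the processed values.

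Among the stromal, vascular and blood cell microRNAs, those detected on both arrays had higher signal in oral mucosa. The mesenchymal miR-199a-3p, miR-199a-5p and miR-214-3p were detected on both arrays, summed to 270.0 and 1300, with miR-214-3p the brightest, and 3 of 3 passed the size rule. The red cell miR-451a, 1 of 3 detected, was past it as well, as was the endothelial miR-126a-3p, 1 of 2 detected and on the mucosal array only, while miR-126a-5p, miR-144-3p and miR-144-5p were detected on neither array. Their lists summed to 8.83 and 103 for endothelium and to 32.3 and 3005 for red cells. Of 6 immune cell probes 2 were detected, miR-150-5p and miR-146a-5p, both past the rule toward oral mucosa and the former detected there only, with sums of 75.1 and 296, while the pan-leukocyte miR-142-3p was not detected. The neural list had 1 of 4 detected, miR-128-3p, with a difference of -0.52 (SD 0.20), and the neuronal miR-124-3p was at background. The next ranges cover 7 settings, among them the reported one, other scalings, a background correction and the processed values. Apart from the neural list, the microRNAs of these and the smooth muscle lists that were detected on both arrays stayed above 0. They were miR-145a-5p, miR-145b, miR-199a-3p, miR-199a-5p, miR-214-3p, miR-451a and miR-146a-5p. With the processed values miR-145b, miR-199a-5p and miR-146a-5p were as low as 0.22, 0.51 and 0.51. The neural miR-128-3p ranged up to 0.09. For miR-126a-3p, miR-150-5p, miR-143-3p and miR-143-5p, detected on the mucosal array only, a value under 0 was not possible, and the lowest were 0.92, 1.58, 1.04 and 0. The part of these cell types in the miR-133 signals was not tested.

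**Figure D5:**
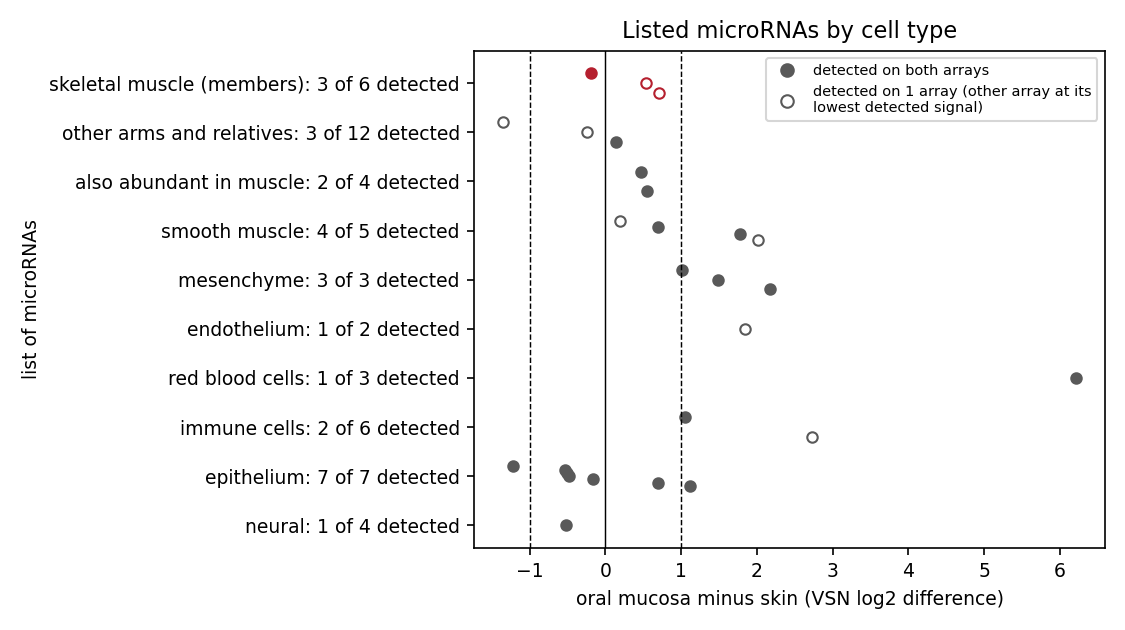
VSN log2 difference of oral mucosa minus skin for every listed microRNA detected on at least 1 array, by cell type, with filled points for those detected on both arrays, open points for those detected on 1 array and set against the lowest detected signal of the other, a solid line at 0 and dashed lines at 2-fold. The 3 muscle microRNAs lie between the dashed lines, while 3 of 3 mesenchymal and 2 of 4 smooth muscle microRNAs lie beyond the right one.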

How the data were processed

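RNA from unwounded skin and oral mucosa, pooled from 3 mice per tissue, had been poly(A)-tailed, tagged and hybridised by a service provider to arrays of the mouse microRNAs in miRBase. The authors deposited the median Cy5 intensity of each of 3968 spots with its SD within the spot, not background-subtracted or scaled, and 1 processed intensity per probe, whose making is not given in the sources used here. Control spots (184, of which 16 empty) served only the detection limit and the normexp fit. Repeat spots were averaged. VSN, the study's normalization, was written in Python 3.11.15 (numpy 2.4.6, scipy 1.17.1, pandas 2.3.3), with least trimmed squares keeping 90% of probes in each of 5 slices of signal except the dimmest, and tested on simulated data. The oral mucosa scale was 1.37 times that of skin. On an array that did not detect a microRNA, the higher of its own and the lowest detected signal stood in. Normexp used limma 3.58.1 in R 4.3.3. The members, lists and rules were chosen with earlier results of these data known. Named besides the members were their other arms and relatives, detected members of the lists, and the microRNA nearest in VSN values to each member detected on both arrays. SDs cover technical error inside an array, and precision is limited by having 1 array per tissue. Alternatives were other scalings, background corrections, filters, spots and thresholds, and the processed values on the scale log2(value + 50).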

Additional observations from a re-analysis of the deposited data

How the results depend on the processing

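No paired analysis was possible because neither tissue has more than 1 array, although the samples that were pooled are described as matched. With signals close to the empty spots, the values depended on scaling and filter, and the cause was not tested unless named. The difference of miR-206-3p, -0.19 as reported, was 0.28 with no normalization between the arrays and moved by less than its repeat-spot SD under the other 12 alternatives. The differences of miR-133a-3p and miR-133b-3p from the lowest detected skin signal, 0.71 and 0.53, were 0.22 and 0.14 with quantile normalization, 0.38 and 0.29 with arrays scaled to their medians, 0.23 and 0.14 with scaling to the 75th percentile, and 1.32 and 1.15 with the limit at 2 SD, chosen after seeing the data. Without a detection filter, which sets their own skin signals in place of the lowest detected one, they were 1.75 and 1.39. That of miR-133b-3p was also 0.40 with the authors' processed values, 0.76 with the first repeat spot alone and 0.28 with the second. The median over the detected muscle microRNAs, 0.53, was 0.14 with quantile normalization, 0.29 with median scaling, 0.14 with the 75th percentile, 0.20 and 0.28 with the first and the second repeat spot alone, -0.17 without a filter and -0.19 with detection on both arrays, where the filter changed which microRNAs entered it. The number past the size rule, 0 of 3 beside 28.5% of all detected microRNAs, was 2 of 6 beside 30.5% without a filter, 2 of 4 beside 29.7% with the limit at 2 SD, and 1 of 3 beside 45.6% at 1.5-fold.

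Of the 562 detected microRNAs 160 passed the size rule. The number was 80 with quantile normalization, 85 with median and 85 with 75th-percentile scaling, 102 with no normalization, 87 with the processed values, 256 at 1.5-fold and 46 at 4-fold. It was 104 of 394, or 26.4%, with detection on both arrays and 577 of 1892, or 30.5%, without a filter. Of the 160 calls 48.1% were toward oral mucosa, and 78.4% with no normalization, where the median of all detected microRNAs shifted to 0.40.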
